A study of Rattus norvegicus with 16 samples.

Results

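The genes described here encode the nuclear-encoded subunits of the oxidative phosphorylation machinery, found by symbol among the rows of a rat gene count table. Symbols that begin with Nduf plus a subunit letter and number (complex I), the symbols Sdha to Sdhd (complex II), and symbols that begin with Uqcr (complex III), Cox plus a subunit number and letter (complex IV) or Atp5 (complex V, the ATP synthase) gave 88 of 33294 rows. Of these, 80 passed the filter on low counts, out of 17856 genes that did: 38 of 41 for complex I, 4 of 4 for complex II, 8 of 8 for complex III, 13 of 17 for complex IV and 17 of 18 for complex V. Poly(A) RNA was sequenced from tissue labelled as central amygdala, a GABAergic output nucleus of the amygdala, taken from adult rats 1 day after a last session that the labels abbreviate as IVSA. The rats were offspring exposed around birth to the synthetic opioid fentanyl, or to saline in its place. There were 6 fentanyl males, 2 fentanyl females, 6 saline males and 2 saline females, 1 library each, and the labels give no strain, exact age or litter. All 4 groups had the sessions, so the sessions were not compared. Since littermates are not marked, p-values reflect only the scatter among these 16 animals.

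Oxidative phosphorylation makes most of the ATP that neurons spend on ion pumping and synaptic transmission. Complexes I and II pass electrons from NADH and succinate to ubiquinone, complex III passes them on to cytochrome c and complex IV to oxygen. Complexes I, III and IV pump protons across the inner mitochondrial membrane, and complex V lets them flow back to make ATP. Complexes I, III, IV and V are mosaics of a few subunits encoded in mitochondrial DNA and many encoded in the nucleus, while complex II is wholly nuclear. Complexes I, III and IV each have a catalytic core and a shell of accessory subunits that help in assembly and stability. All subunits of complex II are counted as core here.

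Total counts per library ranged from 12879701 in fentanyl male replicate 5 to 22426428 in saline male replicate 3. CPM is a gene's count relative to its library size scaled with TMM factors. Of 10 listed central amygdala markers 9 were tested, and Tac2 was not. Over the libraries Prkcd had 11.2 to 33.3 CPM, Sst 41.4 to 206 CPM, Wfs1 59.4 to 611 CPM and Htr2a 14.8 to 52.7 CPM. Calcrl had 9.12 to 36.5 CPM and Crhr1 5.68 to 14.1 CPM. Crh had 0.52 to 17.2 CPM, Dlk1 0.76 to 39.8 CPM and Nts 3.06 to 29.4 CPM. The mean log2 CPM of the 9 ran from 3.38 to 5.24. None of 18 striatal medium spiny neuron genes, markers of a neighbouring region, passed the adjusted test over both sexes in edgeR (smallest adjusted p = 0.310). All 18 had log2 fold changes of fentanyl over saline above 0, with a median of 0.47. At an unadjusted p under 0.05 in edgeR there were 7 of 18, against 7.27% of all tested genes. The mean log2 CPM of the striatal genes was 8.33 ± 0.37 in fentanyl and 7.72 ± 0.65 in saline libraries (SD, n = 8 each). It ran from 7.96 to 9.05 in fentanyl libraries and from 6.85 to 8.76 in saline libraries, so the exposures overlapped. None of the striatal genes was at 0. The mean log2 CPM of 16 myelin and oligodendrocyte genes ran from 7.24 to 8.90 in fentanyl libraries and from 7.26 to 9.19 in saline libraries. In bulk tissue, fewer cells of a type and less RNA per cell cannot be told apart. Fentanyl male replicate 2 stood apart from the other libraries, with 17.7% of its counts in mitochondrially encoded genes against 8.44% to 12.8% in the other 15. Exposure results below whose sign or size turned on it are given with and without it, in the 15-library fit for tests.

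The oxidative phosphorylation genes together took the same share of the counts in both exposures. Their share was 1.04% ± 0.109 in fentanyl libraries and 1.04% ± 0.0992 in saline libraries (SD, n = 8 each). Complex by complex the mean log2 CPM of the tested subunits was also close. It was 6.11 ± 0.22 in fentanyl and 6.12 ± 0.15 in saline libraries for complex I, and 7.09 ± 0.08 in fentanyl and 7.08 ± 0.13 in saline libraries for complex II. Complex III had 6.92 ± 0.17 in fentanyl and 6.88 ± 0.15 in saline libraries, complex IV 5.52 ± 0.32 in fentanyl and 5.51 ± 0.20 in saline libraries, and complex V 7.40 ± 0.22 in fentanyl and 7.36 ± 0.15 in saline libraries. With all 16 libraries each of these 5 differences was smaller than the spread within either exposure, and the exposures overlapped for each complex. The 7 fentanyl libraries other than male replicate 2 had a share of 1.00% ± 0.0382 and means of 6.03 ± 0.08 for complex I, 7.07 ± 0.06 for complex II, 6.87 ± 0.06 for complex III, 5.41 ± 0.10 for complex IV and 7.33 ± 0.05 for complex V (SD, n = 7). Fentanyl minus saline was then -0.087 for complex I and -0.103 for complex IV, each larger than the fentanyl SD and smaller than the saline SD. For complexes II, III and V the difference stayed smaller than both. Means of different complexes are not compared with each other, since counts also depend on transcript length.

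**Figure D1:**
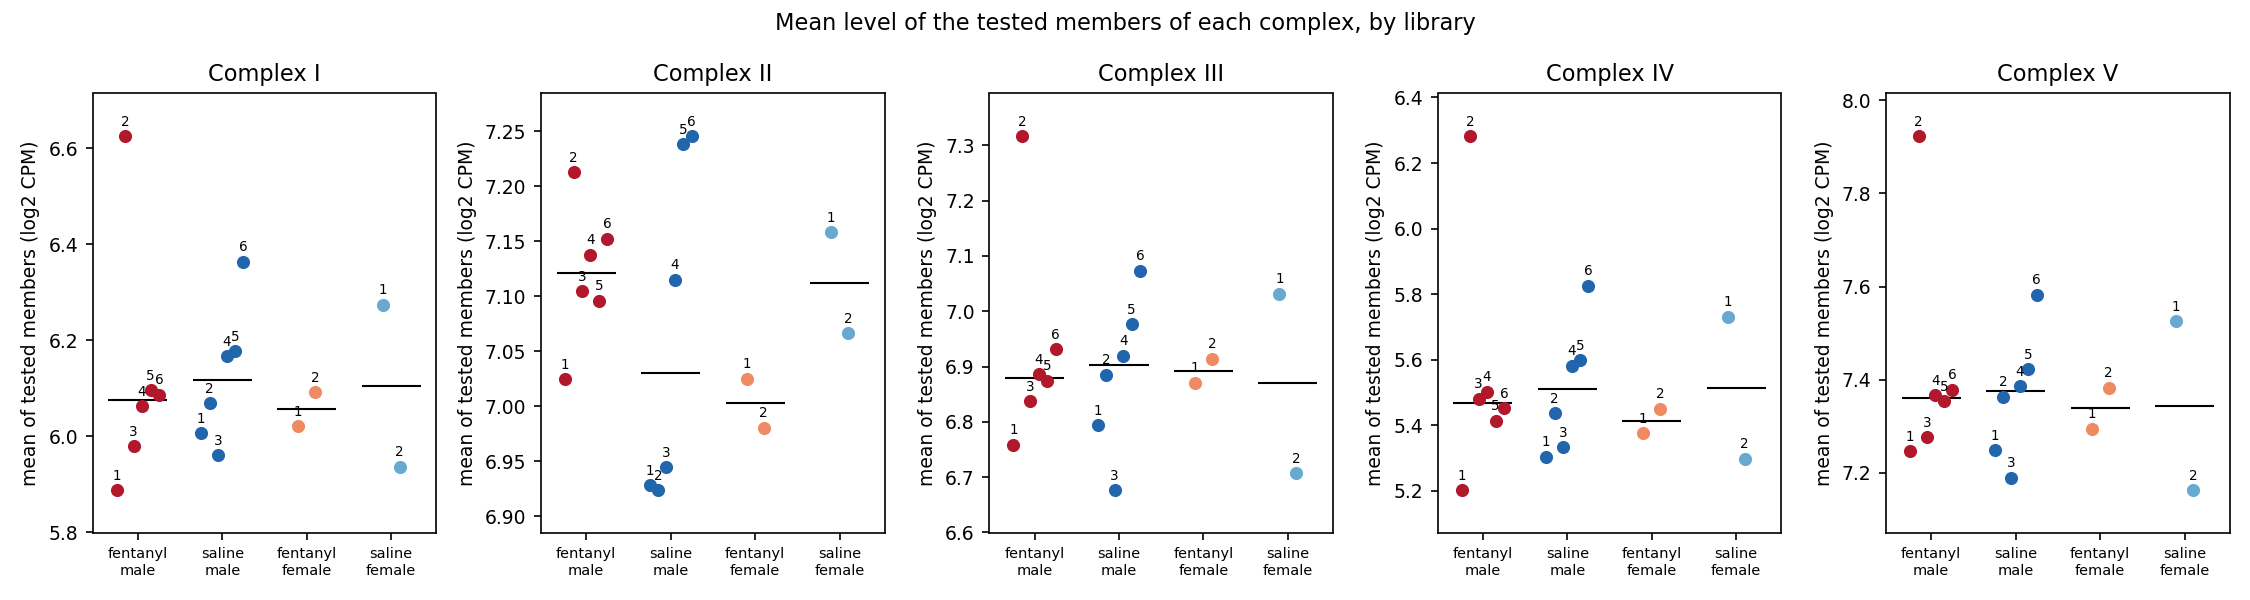
Mean log2 CPM (y axis) of the tested subunits of each complex in each library, with the groups along the x axis of each panel, each point 1 library with its replicate number, and a bar at the group median. Fentanyl male replicate 2 is the highest point for complexes I, III, IV and V, at 6.63, 7.32, 6.28 and 7.92, while saline male replicate 6 is the highest for complex II at 7.25.

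One library lay highest for most of these genes and widened their spread. Fentanyl male replicate 2 had the highest CPM of the 16 libraries for 64 of 80 members, whereas it was the highest for 18.6% of all tested genes. The next libraries by the members' median deviation from the all-library mean of log2 CPM were saline male replicate 6 at 0.25 and saline female replicate 1 at 0.19, against 0.59 in fentanyl male replicate 2. The lowest were saline female replicate 2 at -0.21, saline male replicate 3 at -0.19 and fentanyl male replicate 1 at -0.18. High and low libraries thus came from both exposures. Over the 16 libraries the median SD of log2 CPM was 0.23 for the members and 0.30 for all tested genes, and without fentanyl male replicate 2 it was 0.16 for the members and 0.27 for all tested genes.

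**Figure D2:**
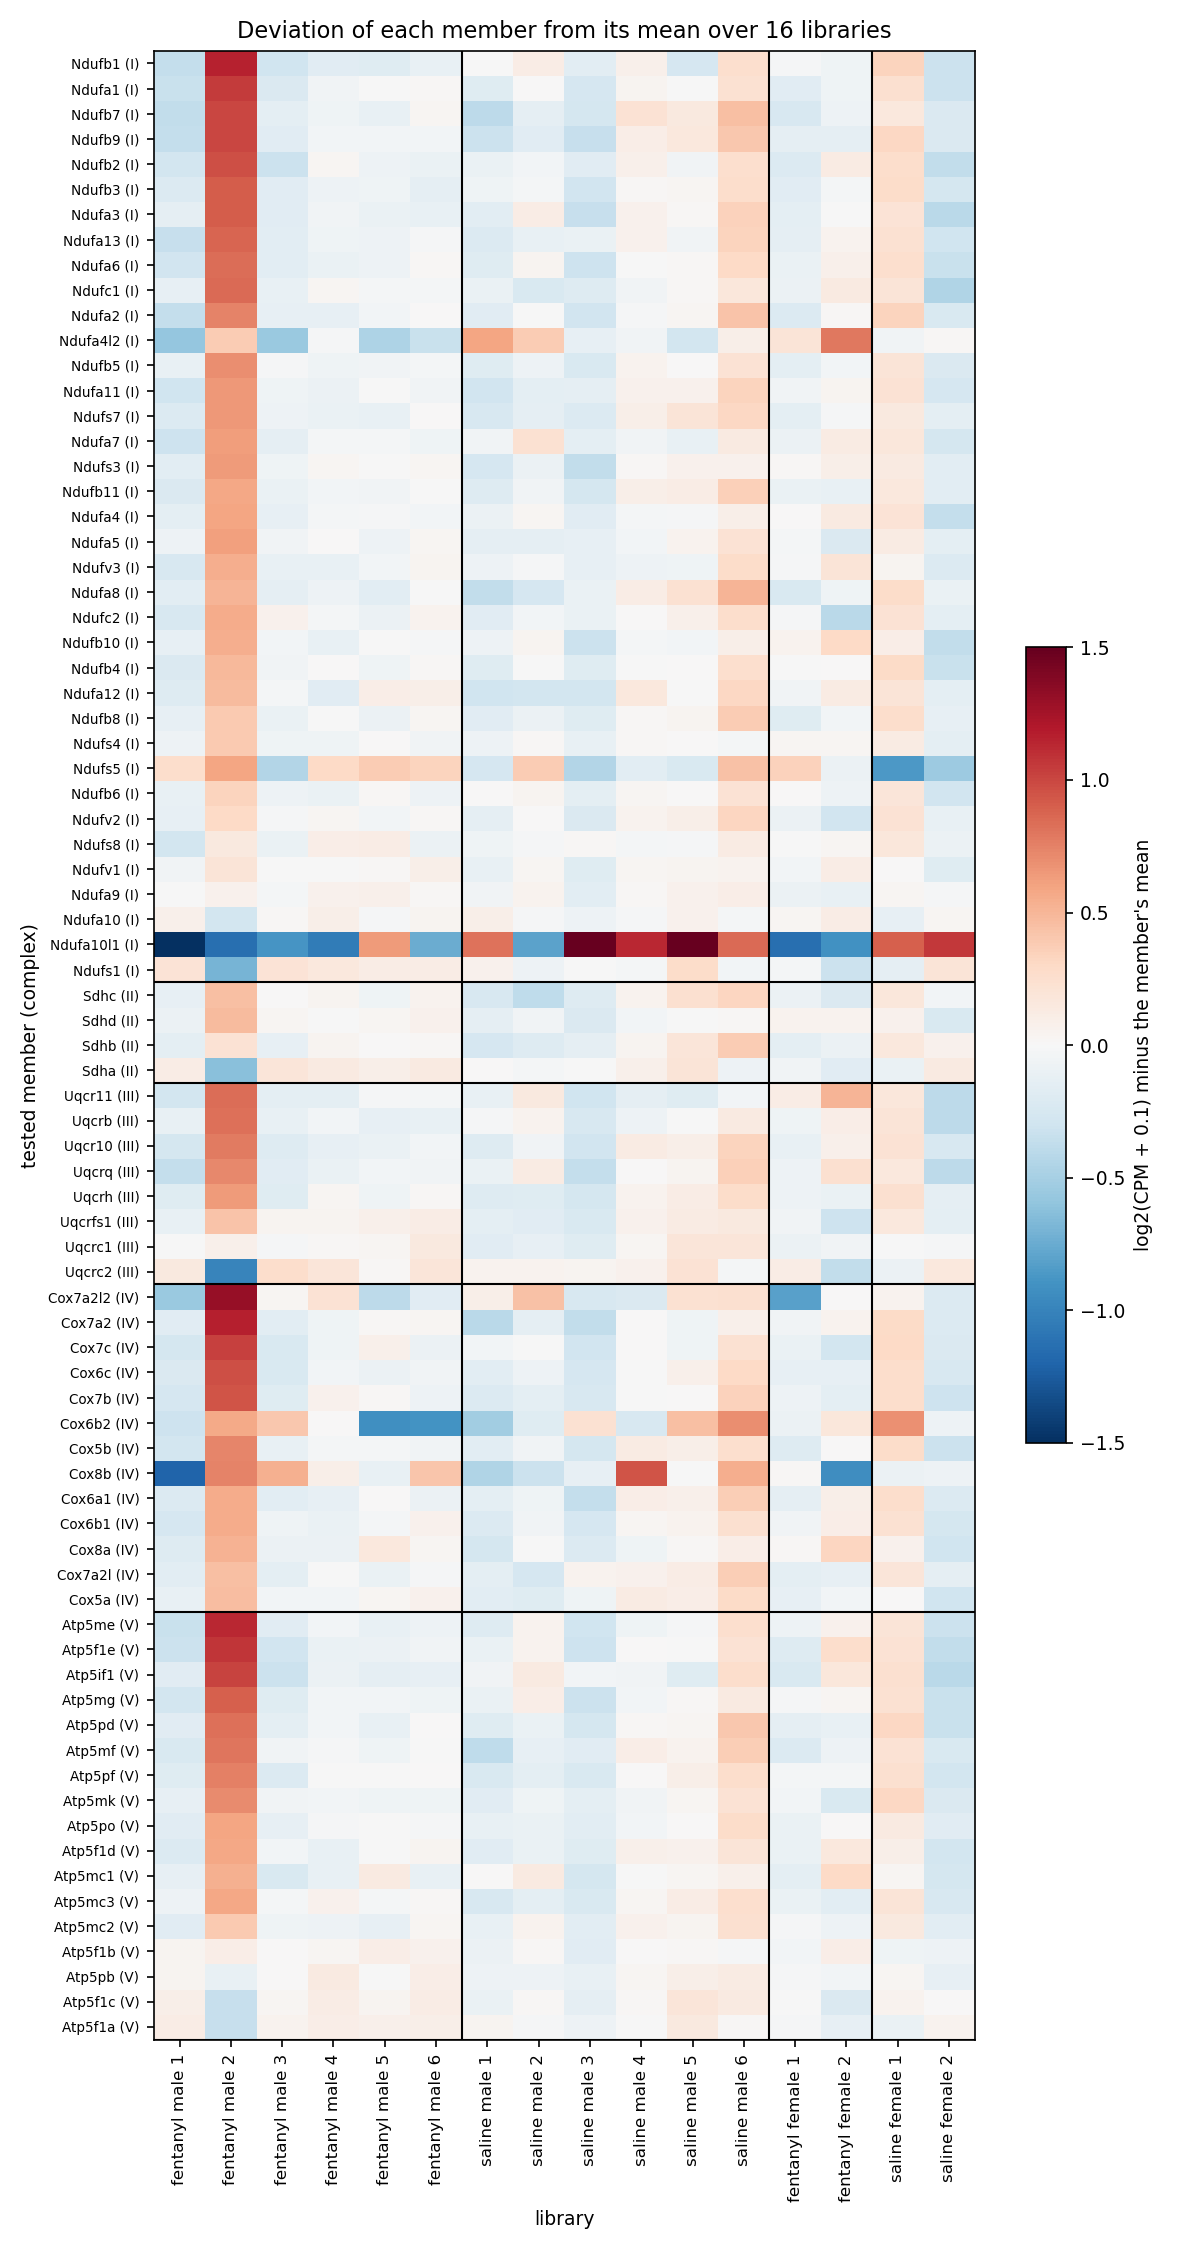
Heat map of 79 of the 80 tested members (rows, by complex) in the 16 libraries (columns, by group), coloured by the deviation of each value, as log2(CPM + 0.1), from its gene's mean. Over all 80, fentanyl male replicate 2 is above the mean for 72 members, saline male replicate 6 for 73, and saline male replicate 3 for 5.

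Most members were higher in fentanyl male replicate 2, and the few lower ones came from complexes I, II, III and V. Relative to the mean of the other 5 fentanyl males, 72 members were higher and 8 lower in this library, with a median of 0.67 on the log2 scale against -0.01 for all tested genes. The medians were 0.66 for complex I, 0.36 for complex II, 0.79 for complex III, 0.83 for complex IV and 0.66 for complex V. Within complex I the 7 core subunits had a median of 0.32 and the 28 accessory subunits a median of 0.70. Of the 14 core subunits of complexes I, II and III, 11 were higher and 3, Ndufs1, Sdha and Uqcrc2, were lower. The other 5 lower members were Ndufa10, Ndufa10l1, Atp5f1a, Atp5f1c and Atp5pb. Ndufb1, a small accessory subunit of the membrane arm, had 51.7 CPM in this library against 18.1 to 21.5 CPM in the other fentanyl males. Ndufs1, the largest subunit of complex I and carrier of iron-sulfur clusters, had 91.4 CPM against 159 to 171 CPM in the other fentanyl males. Sdha, the flavoprotein that oxidises succinate, had 147 CPM against 241 to 257 CPM. Uqcrc2, a core protein of complex III, had 71.8 CPM against 145 to 172 CPM. For Ndufs1, Sdha and Uqcrc2 the library was the lowest of the 16, and for Ndufb1 the highest.

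The subunits of the catalytic head of complex V differed among themselves. The alpha and gamma subunits Atp5f1a and Atp5f1c each differed by -0.42 on the log2 scale between fentanyl male replicate 2 and the other fentanyl males, the beta subunit Atp5f1b by 0.06, the delta subunit Atp5f1d by 0.65 and the small epsilon subunit Atp5f1e by 1.24. Atp5me, a small membrane subunit, was 1.28 higher and Atp5if1, the inhibitor of the reverse ATPase reaction, 1.19 higher. All 13 complex IV members were higher there, by 0.48 for Cox5a to 1.46 for Cox7a2l2. These are values of 1 library and carry no test.

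Other gene lists differed in how they moved in the same library. The 13 mitochondrially encoded subunits lay at a median of 1.09 above the other fentanyl males, all 13 of them higher. The 82 tested cytosolic ribosomal protein genes had a median of 0.90, with 77 higher, and the 29 small-subunit mitochondrial ribosomal protein genes one of 0.58, with 27 higher. Complex assembly factors had 0.15, mitochondrial carriers and import genes 0.07, the tricarboxylic acid cycle list -0.10 and glycolysis -0.18. The endothelial and mural list had 0.80, with 11 of 12 higher, and the central amygdala list -0.72, with 8 of 9 lower. The part of tissue composition or RNA quality in this pattern was not tested.

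**Figure D3:**
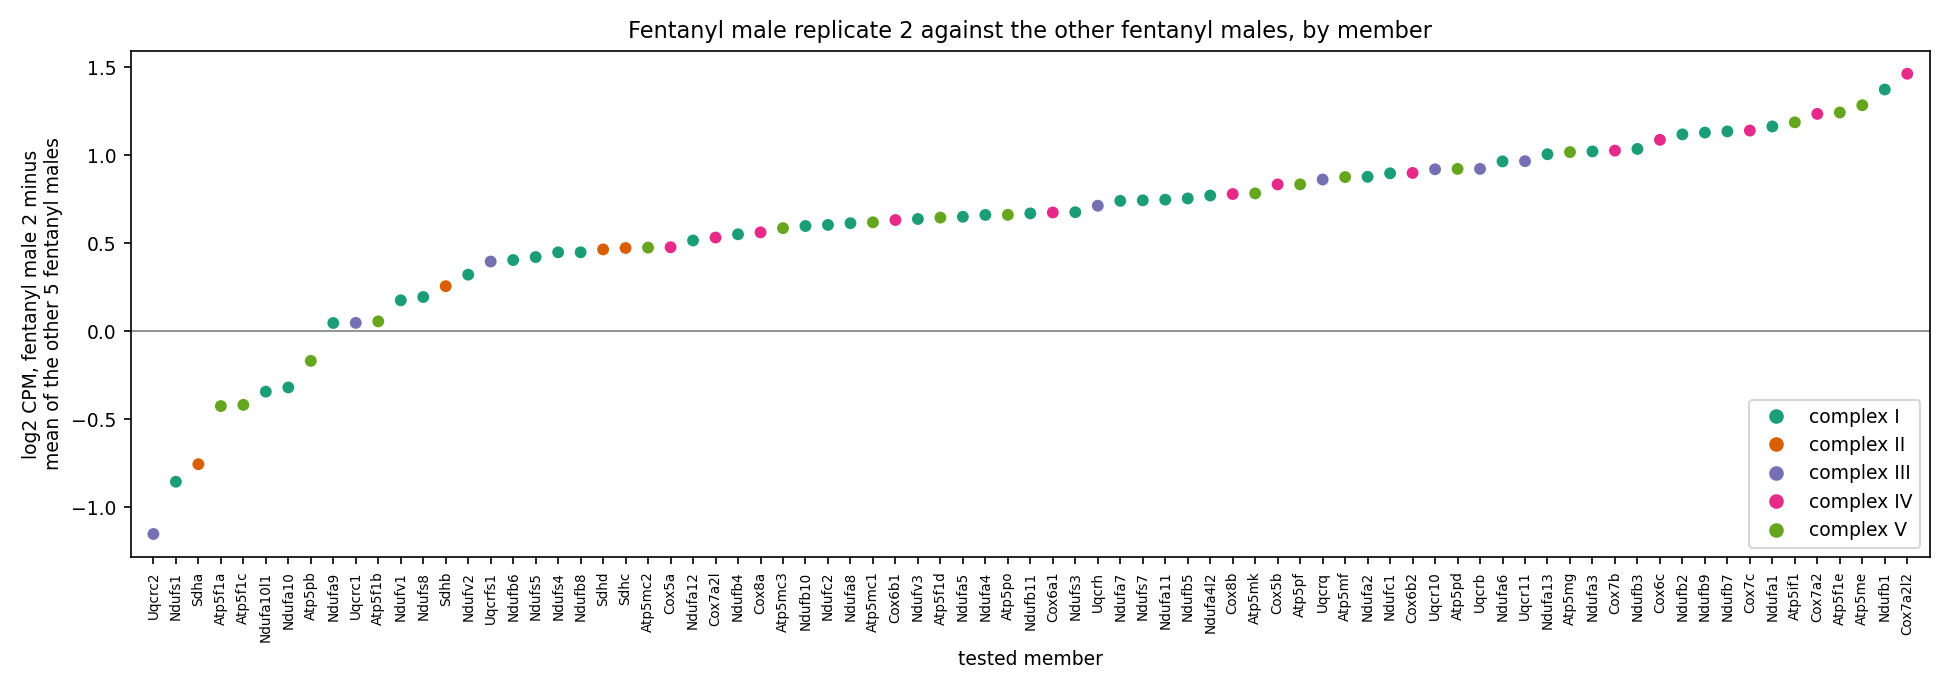
Difference in log2 CPM between fentanyl male replicate 2 and the mean of the other 5 fentanyl males, with each point 1 of 79 members (x axis, in rising order) coloured by its complex. Most points lie above 0, up to 1.46 for Cox7a2l2, and the lowest are Uqcrc2 at -1.15, Ndufs1 at -0.85 and Sdha at -0.75.

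Many of these genes are known targets of nuclear respiratory factor 1 (NRF1), of ETS factors such as GABP (also called NRF2) and of YY1, so their promoters were searched for short motifs of these factors. RefSeq promoter sequences (build GRCr8, from 250 bases before to 50 bases after the start) were matched for 71 of the 80 tested members. The NRF1 motif, GCGCA and GCGC with 1 base of any kind between them, was found on either strand in 13 of 71 member promoters (18.3%) and in 4.25% of all 33469 promoters in the table. On either strand, the ETS motif CCGGAAG was in 20 of 71 (28.2%, against 8.75% of all promoters) and the YY1 motif AAGATGGCG in 9 of 71 (12.7%, against 1.73%). At least 1 of the 3 motifs was in 37 of 71 (52.1%, against 13.4%). By complex, the NRF1 motif was in 6 of 34 promoters of complex I, 1 of 4 of complex II, 1 of 6 of complex III, 0 of 11 of complex IV and 5 of 16 of complex V. No motif contains another, though matches can overlap at their ends. The ETS and YY1 motifs share the letters AAG there, and the YY1 and NRF1 motifs the letters GCG. A match is a description of letters, not of binding.

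Members that moved in opposite directions in fentanyl male replicate 2 both held the NRF1 motif, and 4 upstream sequences chosen after the values were seen show this. They are the 250 bases before the start in RefSeq GRCr8, 5′ to 3′ on the strand of the gene, with NRF1 matches in capitals. Ndufs5 and Atp5me were 0.42 and 1.28 higher on the log2 scale in that library than in the other fentanyl males, Uqcrc1 0.05 higher, and Sdha differed by -0.75.
Atp5me, chr14:1464610-1464859, plus strand: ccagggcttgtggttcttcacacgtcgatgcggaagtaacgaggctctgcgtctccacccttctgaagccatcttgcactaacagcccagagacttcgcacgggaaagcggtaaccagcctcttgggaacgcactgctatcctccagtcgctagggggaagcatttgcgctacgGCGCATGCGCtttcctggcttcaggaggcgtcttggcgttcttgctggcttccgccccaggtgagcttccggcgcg
Ndufs5, chr5:141264403-141264652, minus strand: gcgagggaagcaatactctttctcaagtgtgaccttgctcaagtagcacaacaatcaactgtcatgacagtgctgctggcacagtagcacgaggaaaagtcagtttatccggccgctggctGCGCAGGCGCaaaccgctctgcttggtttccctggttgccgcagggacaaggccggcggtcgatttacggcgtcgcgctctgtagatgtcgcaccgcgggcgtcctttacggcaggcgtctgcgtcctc
Uqcrc1, chr8:118467973-118468222, plus strand: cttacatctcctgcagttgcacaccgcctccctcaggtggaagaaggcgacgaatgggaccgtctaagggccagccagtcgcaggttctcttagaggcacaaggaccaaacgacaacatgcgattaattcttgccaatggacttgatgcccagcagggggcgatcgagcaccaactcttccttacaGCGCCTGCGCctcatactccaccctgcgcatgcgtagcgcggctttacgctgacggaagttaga
Sdha, chr1:30764303-30764552, plus strand: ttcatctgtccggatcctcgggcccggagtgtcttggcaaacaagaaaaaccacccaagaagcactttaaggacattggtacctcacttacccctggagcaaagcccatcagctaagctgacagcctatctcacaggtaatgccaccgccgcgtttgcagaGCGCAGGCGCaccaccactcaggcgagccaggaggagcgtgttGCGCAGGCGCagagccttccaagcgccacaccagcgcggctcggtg
The match in Uqcrc1 reads on the opposite strand, and Sdha has a further match across its start, outside the bases shown. The 13 members with the NRF1 motif had a median shift of 0.55 in fentanyl male replicate 2 and were highest there in 10 cases, and the 58 without it had a median shift of 0.73 and were highest there in 46 cases.

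Several genes of the rule were scarce or uncounted in this tissue. Of the 80 tested members 75 had mean levels of 24.1 CPM (Ndufb1) to 1062 CPM (Atp5f1b), and 5 lay under 5 CPM: Ndufa10l1, Ndufa4l2, Cox6b2, Cox7a2l2 and Cox8b. Cox6b2, known as a testis isoform, had 0.55 to 1.73 CPM in fentanyl males, 1.06 and 1.29 CPM in fentanyl females, 0.75 to 1.90 CPM in saline males and 1.07 and 1.87 CPM in saline females. Its ubiquitous counterpart Cox6b1 had 110 to 194 CPM in fentanyl males, 127 and 141 CPM in fentanyl females, 110 to 156 CPM in saline males and 110 and 154 CPM in saline females. Cox8b, an isoform of heart and muscle, had 0.21 to 1.08 CPM in fentanyl males, against 0.41 to 1.25 CPM in saline males.

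The 8 members that did not pass the filter were Cox6a2, Cox7b2, Cox8c, Ndufs6, Atp5hl1, Ndufa13-ps1, Cox6c-ps1 and Ndufb4l1-ps1. Cox6c-ps1 and Ndufb4l1-ps1 had 0 counts in all 16 libraries. Cox6a2, the heart and muscle isoform of subunit 6a, had 106 counts in all, while the levels of Cox6a1 in males were 236 to 402 CPM after fentanyl and 212 to 350 CPM after saline. Ndufs6 encodes an accessory subunit of complex I, but its row held 0 to 5 counts per library and 36 in all. Genes with near-identical copies can lose reads to them or share them in counting, and that was not tested for Ndufs6. Cox7a1, the muscle isoform of subunit 7a, was not analysed here.

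Setting the 8 fentanyl offspring against the 8 saline offspring asks whether perinatal fentanyl left a lasting difference in these transcripts. No member passed an adjusted p of 0.05 in the quasi-likelihood test of edgeR, adjusted over all tested genes after Benjamini and Hochberg, and 0.0784% of all tested genes did. At an unadjusted p under 0.05 there were 2 of 80 members, Ndufa10l1 lower and Ndufs5 higher, against 7.27% of all tested genes. DESeq2 and limma voom each called 1 member, Ndufa10l1. Both also called more of all tested genes than edgeR did, limma voom by far the most, as the closing paragraph gives. Log2 fold changes of fentanyl over saline had a median of 0.05 for the members, with 58 of 80 above 0, against -0.01 for all tested genes. Without fentanyl male replicate 2 the members' median was -0.06, with 24 of 80 above 0, so the direction of the median turned on that library. In no member were the 8 fentanyl and 8 saline libraries without overlap, and 0.101% of all tested genes were.

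The complexes differed little from each other in this comparison. Median log2 fold changes were 0.04 for complex I (26 of 38 above 0), -0.01 for complex II (2 of 4), 0.04 for complex III (7 of 8), 0.05 for complex IV (9 of 13) and 0.07 for complex V (14 of 17). Without fentanyl male replicate 2 they were -0.06 for complex I, -0.00 for complex II, -0.01 for complex III, -0.10 for complex IV and -0.04 for complex V, so the medians of complexes I, III, IV and V turned on that library. Apart from Ndufa10l1, the members ran from -0.26 (Cox6b2) to 0.42 (Ndufs5). The 14 subunits of the cores of complexes I, II and III had a median of 0.01, with 8 above 0, and the 37 accessory subunits one of 0.05, with 30 above 0. Without fentanyl male replicate 2 the core median was 0.01, with 8 above 0, and the accessory median -0.07, with 7 above 0, so which of them was higher turned on that library.

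**Figure D4:**
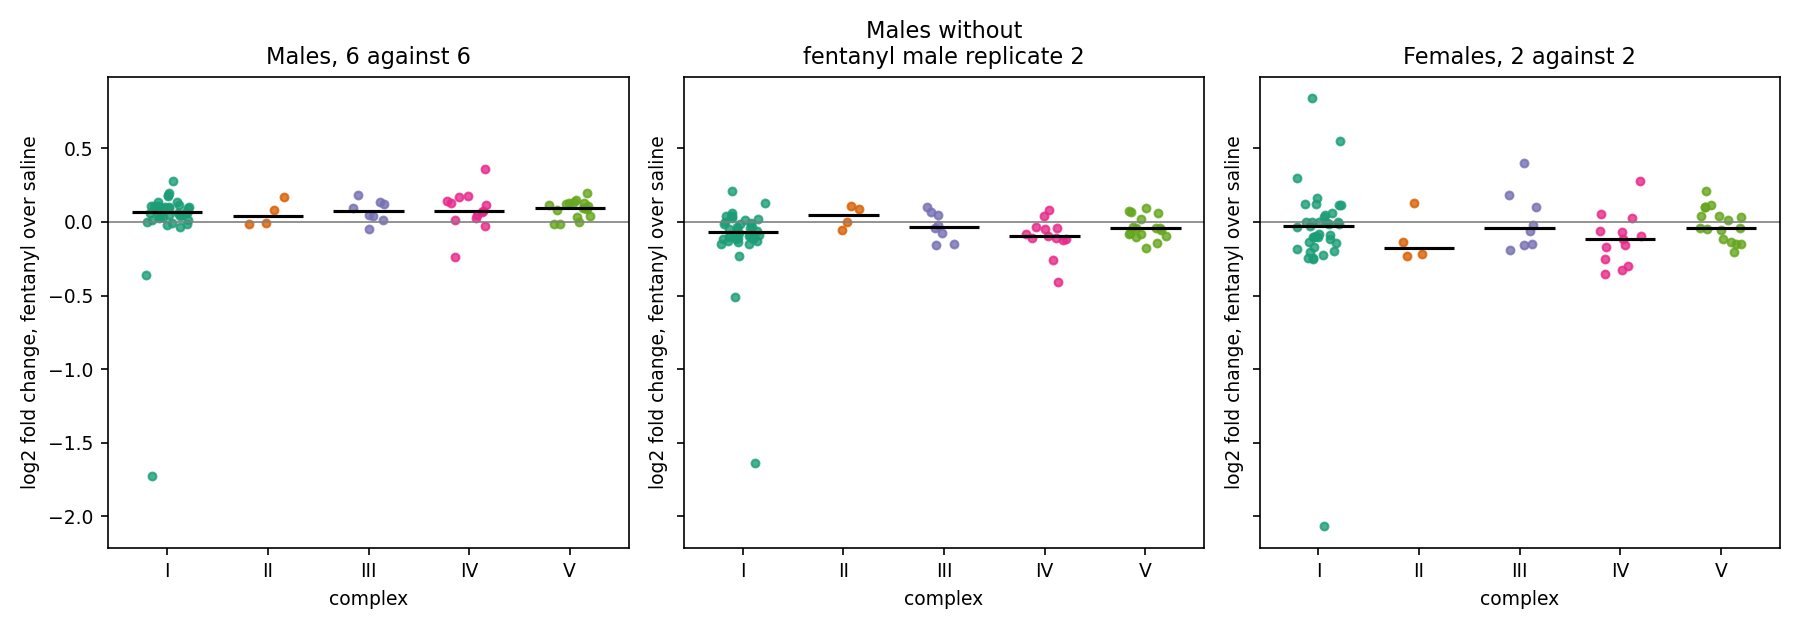
Log2 fold changes of fentanyl over saline (edgeR) for each tested member, by complex (x axis), in males, in males without fentanyl male replicate 2 and in females, with each point 1 member and a bar at the median of each complex. In males the members' median is 0.08 with all libraries and -0.05 without that replicate, and 1 point, Ndufa10l1, lies far below the rest at -1.73 in males and -2.07 in females.

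Ndufa10l1 showed the widest difference among the members. It is named as a copy of Ndufa10, a subunit of complex I, and its own function is not described here. It had 0.69 to 4.40 CPM in fentanyl males (median 1.38), 1.23 and 1.45 CPM in fentanyl females, 1.56 to 8.77 CPM in saline males (median 5.68) and 5.31 and 5.96 CPM in saline females. These levels rest on 10 to 56 counts per fentanyl library and 27 to 195 counts per saline library. Of 8 fentanyl libraries 6 lay below the lowest saline library, and of 8 saline libraries 7 lay above the highest fentanyl library. The groups overlapped through fentanyl male replicate 5, at 4.40 CPM, fentanyl male replicate 6, at 1.62 CPM, and saline male replicate 2, at 1.56 CPM.

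The log2 fold change of Ndufa10l1 was -1.81 ± 0.35 (SE), with an unadjusted p of 7.11e-05 and an adjusted p of 0.0605 in edgeR, which missed the threshold. It had the smallest adjusted p of the members. DESeq2 called it lower (adjusted p = 0.000165), as did limma voom with quality weights (adjusted p = 0.000973). Leaving out 1 library at a time gave log2 fold changes of -2.16 to -1.70 and adjusted p-values of 0.00477 to 0.177 in edgeR. It passed without fentanyl male replicate 5 (adjusted p = 0.00477) and without saline male replicate 2 (adjusted p = 0.00930). Without the saline males of library numbers 9 to 12, 4 of the 6, it was -1.38 ± 0.46 (adjusted p = 0.999), and without those of numbers 1 and 2 it was -2.02 ± 0.29 (adjusted p = 0.00407). The 2 saline females, numbered 10 and 11, stayed in both runs. The run without numbers 1 and 2 also called far more of all tested genes than that without 9 to 12, as the closing paragraph gives. All fentanyl libraries were numbered from 1 to 6, so number set and exposure cannot be told apart for the saline libraries numbered 9 to 12. The labels do not say what the numbers mark. With the mean levels of the striatal and myelin lists in the model the log2 fold change of Ndufa10l1 was -1.57 ± 0.44 (adjusted p = 0.275). Which of the 2 genes a shared read was counted for was not tested. Ndufa10 itself had 92.3 to 119 CPM in fentanyl males, 114 and 121 CPM in fentanyl females, 106 to 119 CPM in saline males and 102 and 114 CPM in saline females, with a log2 fold change of 0.02 ± 0.06 in edgeR, and 0.07 ± 0.05 without fentanyl male replicate 2. Of the neighbours of Ndufa10l1 in the RefSeq gene order, Lrrn3 had a log2 fold change of -0.05 ± 0.12, Dnajb9 one of -0.01 ± 0.10 and Pnpla8 one of -0.06 ± 0.09.

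Ndufs5, an accessory subunit on the intermembrane side of complex I, was the other member under an unadjusted p of 0.05. It had 36.1 to 73.8 CPM in fentanyl males (median 61.1), 46.2 and 62.1 CPM in fentanyl females, 36.0 to 66.7 CPM in saline males (median 42.8) and 26.9 and 33.6 CPM in saline females. Most fentanyl males lay high, but replicate 3 was at 36.1 CPM, and saline males 2 and 6 lay among the fentanyl animals at 63.6 and 66.7 CPM. Its log2 fold change was 0.42 ± 0.16, with an unadjusted p of 0.0209 and an adjusted p of 0.603 in edgeR. Without fentanyl male replicate 2 it was 0.38 ± 0.17, so this difference depended less on that library than those of most members.

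**Figure D5:**
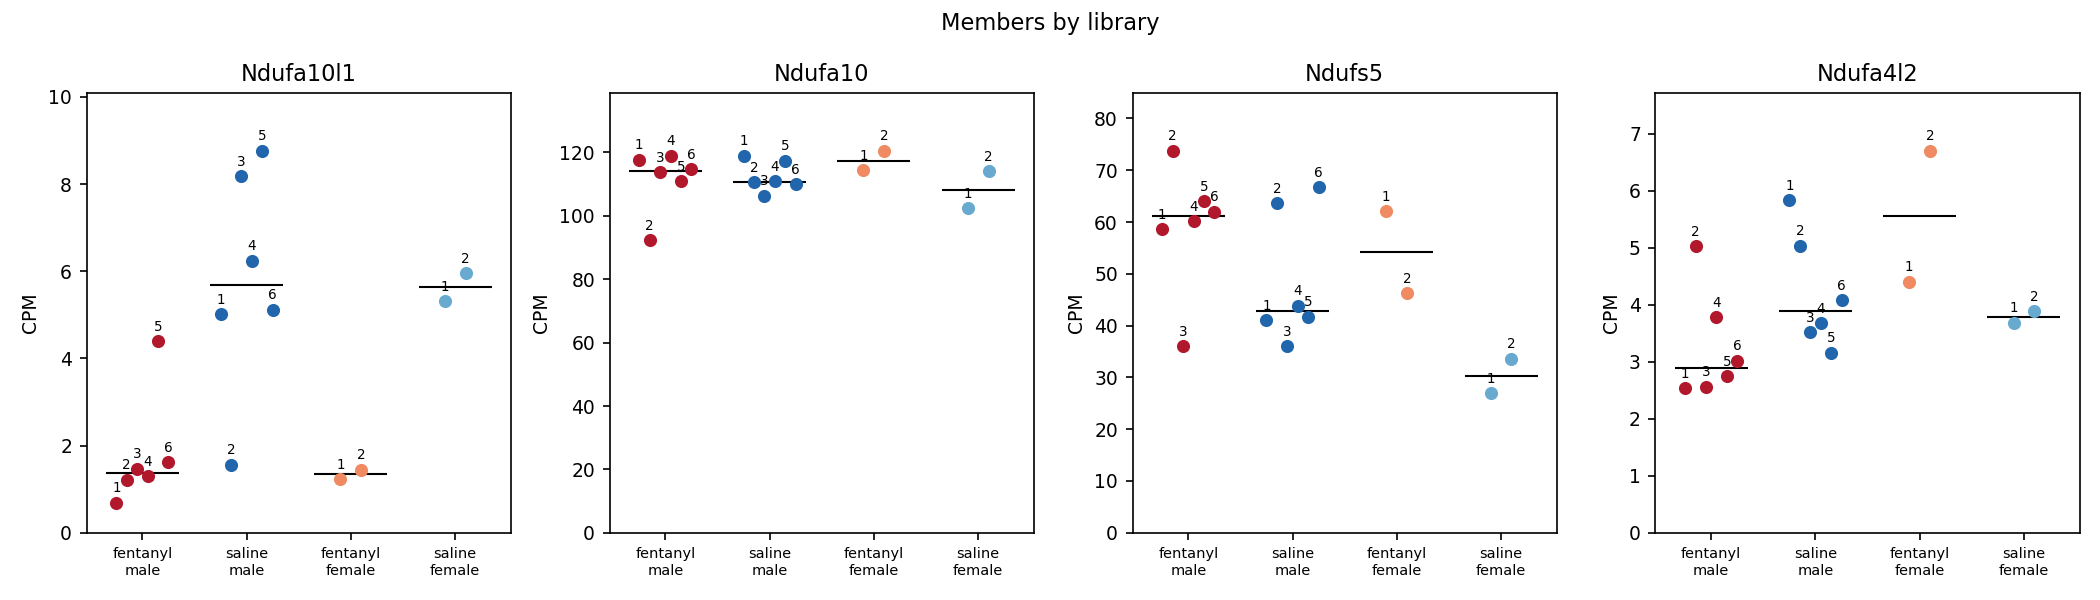
CPM (y axis) of Ndufa10l1, Ndufa10, Ndufs5 and Ndufa4l2 in each library, by group, with each point 1 library and a bar at the group median. Ndufa10l1 lies low in fentanyl groups except for replicate 5 of the males at 4.40 CPM, and Ndufs5 has its lowest values, 26.9 and 33.6 CPM, in saline females.

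The catalytic core of complex I was close between exposures. The iron-sulfur and flavin subunits of the electron entry arm had log2 fold changes of 0.08 ± 0.06 for Ndufv1, -0.06 ± 0.09 for Ndufv2 and -0.04 ± 0.12 for Ndufs1. The subunits near the ubiquinone site and its iron-sulfur clusters had 0.15 ± 0.11 for Ndufs3, 0.01 ± 0.12 for Ndufs7 and -0.02 ± 0.07 for Ndufs8. In the 15 libraries without fentanyl male replicate 2 these were 0.07 ± 0.06 for Ndufv1, -0.10 ± 0.08 for Ndufv2, 0.05 ± 0.08 for Ndufs1, 0.06 ± 0.07 for Ndufs3, -0.10 ± 0.09 for Ndufs7 and -0.03 ± 0.07 for Ndufs8. Ndufv1, which binds NADH, had 160 to 188 CPM in fentanyl males, 161 and 179 CPM in fentanyl females, 145 to 171 CPM in saline males and 146 and 166 CPM in saline females. For Ndufv1 the ranges of the exposures overlapped in part, and the largest value was that of fentanyl male replicate 2. Ndufa4, which was first assigned to complex I and is now placed in complex IV, had a log2 fold change of 0.10 ± 0.11, and 0.01 ± 0.08 without that library.

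Complex II links the tricarboxylic acid cycle to the respiratory chain. Sdhd, a membrane anchor, had 104 to 153 CPM in fentanyl males, 114 and 114 CPM in fentanyl females, 94.4 to 111 CPM in saline males and 93.6 and 115 CPM in saline females. Its highest value was that of fentanyl male replicate 2, and the exposures overlapped. The log2 fold change was 0.16 ± 0.08 with an adjusted p of 0.725 in edgeR, and 0.10 ± 0.06 without that library. Sdhb, the iron-sulfur subunit, had 96.3 to 124 CPM in fentanyl males, 96.2 and 101 CPM in fentanyl females, 89.7 to 139 CPM in saline males and 111 and 119 CPM in saline females, with a log2 fold change of -0.07 ± 0.09. The 2 fentanyl females lay below the 2 saline females for Sdhb, while the males overlapped. How many of all tested genes separated the females in this way was not computed. Sdha had -0.04 ± 0.10 and Sdhc, the other anchor, 0.01 ± 0.11, and without fentanyl male replicate 2 Sdha had 0.04 ± 0.06 and Sdhc -0.05 ± 0.10.

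In complex III the members with the smallest p were small structural subunits. Uqcr11 had 152 to 329 CPM in fentanyl males (median 173), 198 and 261 CPM in fentanyl females, 150 to 204 CPM in saline males (median 169) and 140 and 207 CPM in saline females. Fentanyl male replicate 2 and fentanyl female replicate 2 were high, and the other libraries of the exposures overlapped. The log2 fold change was 0.24 ± 0.15 (adjusted p = 0.770 in edgeR), and 0.10 ± 0.11 without fentanyl male replicate 2. Uqcrb, known as a ubiquinone-binding protein, had male medians of 107 CPM after fentanyl and 115 CPM after saline, and 204 CPM in fentanyl male replicate 2. Its log2 fold change was 0.11 ± 0.13, and -0.02 ± 0.08 without that library. The Rieske iron-sulfur protein Uqcrfs1 had 0.05 ± 0.09, the core proteins Uqcrc1 and Uqcrc2 had 0.02 ± 0.07 and -0.07 ± 0.14, and the hinge protein Uqcrh had 0.03 ± 0.12. Without that library they were 0.00 ± 0.08 for Uqcrfs1, 0.03 ± 0.07 for Uqcrc1, 0.04 ± 0.08 for Uqcrc2 and -0.07 ± 0.09 for Uqcrh, and the signs of Uqcrc2 and Uqcrh were turned.

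Complex IV had its smallest p-values in Cox8a and Cox7a2, small subunits of its membrane part. Cox8a had 182 to 299 CPM in fentanyl males, 210 and 259 CPM in fentanyl females, 173 to 223 CPM in saline males and 169 and 218 CPM in saline females. Its log2 fold change was 0.18 ± 0.11 (adjusted p = 0.759 in edgeR), and 0.11 ± 0.09 without fentanyl male replicate 2. Cox7a2 had 49.2 to 124 CPM in fentanyl males (median 54.2), 53.0 and 57.2 CPM in fentanyl females, 41.7 to 58.0 CPM in saline males (median 51.5) and 47.8 and 67.2 CPM in saline females. Apart from the 124 CPM of fentanyl male replicate 2, all fentanyl libraries lay within the range of the saline libraries. The log2 fold change of Cox7a2 was 0.26 ± 0.18 with that library and 0.04 ± 0.09 without it. The matrix-side subunits Cox5a and Cox5b had 0.05 ± 0.09 and 0.03 ± 0.14, and -0.01 ± 0.08 and -0.09 ± 0.10 without it. Cox6a1, Cox6b1, Cox6c, Cox7b and Cox7c ran from -0.01 to 0.10, and from -0.13 to -0.02 without it, all 5 below 0.

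In complex V the catalytic beta subunit Atp5f1b was the member with the narrowest spread among those with the smallest p. It had 1067 to 1138 CPM in fentanyl males, 1029 and 1134 CPM in fentanyl females, 939 to 1075 CPM in saline males and 1005 and 1010 CPM in saline females. The males of the exposures overlapped, and both fentanyl females lay above both saline females. The share of all tested genes with such a separation of females was not computed. The log2 fold change was 0.10 ± 0.07 (adjusted p = 0.791 in edgeR), and it was the same to 2 decimals without fentanyl male replicate 2. Atp5me had 0.16 ± 0.18, and -0.06 ± 0.09 without that library. The alpha and gamma subunits had -0.01 ± 0.08 and -0.04 ± 0.08, and 0.04 ± 0.06 and 0.01 ± 0.06 without it. The 3 genes for the c subunit of the proton ring, Atp5mc1, Atp5mc2 and Atp5mc3, had 0.08 ± 0.11, -0.02 ± 0.09 and 0.07 ± 0.11, and the inhibitor Atp5if1 had 0.08 ± 0.17. The values without fentanyl male replicate 2 were 0.01 ± 0.09 for Atp5mc1, -0.08 ± 0.07 for Atp5mc2, -0.01 ± 0.09 for Atp5mc3 and -0.12 ± 0.10 for Atp5if1.

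In males alone, 6 against 6, no member passed in edgeR, and 0.0392% of all tested genes did. At an unadjusted p under 0.05 there was 1 of 80 members, Ndufa10l1, against 4.13% of all tested genes. Without fentanyl male replicate 2 there were 2 of 80, Ndufa10l1 and Ndufa4l2, against 794 of 17806 tested genes. With all libraries DESeq2 and limma voom again called Ndufa10l1, and their calls over all tested genes in males are not given here. It had a log2 fold change of -1.73 ± 0.41 and an adjusted p of 0.326 in edgeR, and without fentanyl male replicate 5 it was -2.20 ± 0.36 (adjusted p = 0.0467). Without the saline males of library numbers 9 to 12 it was -0.90 ± 0.54 in males (adjusted p = 0.385). The members' median was 0.08, with 67 of 80 above 0, and -0.05, with 23 of 80 above 0, without fentanyl male replicate 2. By complex the medians were 0.07 for complex I, 0.04 for complex II, 0.07 for complex III, 0.08 for complex IV and 0.10 for complex V, and without that library they were -0.07 for complex I, 0.04 for complex II, -0.03 for complex III, -0.10 for complex IV and -0.04 for complex V. After Ndufa10l1 the members with the smallest p in their complexes were Sdhd at 0.17 ± 0.09, Uqcrfs1 at 0.13 ± 0.10, Cox7a2 at 0.36 ± 0.21 and Atp5f1b at 0.10 ± 0.08. With fentanyl male replicate 2 left out, Sdhd was at 0.09 ± 0.07, Uqcrfs1 at 0.07 ± 0.09, Cox7a2 at 0.08 ± 0.11 and Atp5f1b at 0.09 ± 0.07. No member had non-overlapping male groups, which 0.375% of all tested genes had.

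In females, 2 against 2, the members' median lay below 0. In males it was 0.08 with all libraries and -0.05 without fentanyl male replicate 2, so whether the sexes differed in direction turned on that library. In females no member passed in edgeR, and neither did any other gene (0% of all tested genes). DESeq2 and limma voom also called no member. At an unadjusted p under 0.05 there were 2 of 80 members, Ndufa10l1 and Ndufs5, against 14.3% of all tested genes. Ndufa10l1 had a log2 fold change of -2.07 ± 0.71 and Ndufs5 one of 0.84 ± 0.31 (adjusted p = 0.333 for each in edgeR). For both genes the fentanyl and saline females did not overlap. Groups of 2 against 2 separate easily, and the share of all tested genes that did so was not computed. The members' median was -0.06, with 27 of 80 above 0, and the lowest median of a complex was that of complex II at -0.18. It rested on single animals: without saline female replicate 1 the members' median was 0.17 with 62 of 80 above 0, and without saline female replicate 2 it was -0.25 with 11 of 80 above 0. The myelin list was lower in all 16 genes (median -1.05) and the striatal list higher in all 18 (median 0.87) in fentanyl over saline females. Their part in the members' values was not tested beyond the fit with both list means as covariates, in which the members' median was 0.14.

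The difference of the exposure effect between females and males was tested as a contrast of its own. No member passed in edgeR, and neither did any other gene (0%). DESeq2 and limma voom called no member. There was 1 of 80 members at an unadjusted p under 0.05, Ndufa4l2, against 8.23% of all tested genes. Ndufa4l2, a paralogue of Ndufa4 known to be induced by hypoxia, had 2.54 to 5.03 CPM in fentanyl males (median 2.88), 4.40 and 6.70 CPM in fentanyl females, 3.16 to 5.83 CPM in saline males (median 3.88) and 3.69 and 3.89 CPM in saline females. Fentanyl females lay above saline females, a separation whose share over all tested genes was not computed, and the male groups overlapped. The log2 fold change was 0.55 ± 0.35 in females and -0.36 ± 0.21 in males, with a difference of 0.91 ± 0.41 (unadjusted p = 0.0402, adjusted p = 0.570 in edgeR). Without fentanyl male replicate 2 it was 0.57 in females and -0.51 in males, with a difference of 1.08. Ndufs5 had a difference of 0.56 ± 0.36 and Uqcrfs1 one of -0.32 ± 0.21. The members' median difference was -0.13, with 16 of 80 above 0, and 0.02, with 44 of 80 above 0, without fentanyl male replicate 2.

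Between the sexes, over both exposures, no member passed in edgeR, and 0.056% of all tested genes did. None of the 80 members had an unadjusted p under 0.05, against 2.52% of all tested genes. DESeq2 and limma voom called none either. Log2 fold changes of females over males had a median of -0.06, with 11 of 80 above 0, and 0.02, with 51 of 80 above 0, without fentanyl male replicate 2. The smallest p-values belonged to Ndufs5 at -0.39 ± 0.19, Ndufa4l2 at 0.34 ± 0.22 and Cox5a at -0.16 ± 0.11, which was -0.10 ± 0.09 without that library. Cox5a had 148 and 158 CPM in fentanyl females, 132 and 163 CPM in saline females, 151 to 223 CPM in fentanyl males and 143 to 198 CPM in saline males, so the sexes overlapped.

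Other genes of the pathway, from lists chosen by function, gave no call over both sexes in edgeR either. The 5 nuclear subunits and carriers whose symbols fall outside the rule had log2 fold changes of 0.13 ± 0.14 for Cox4i1, 0.11 ± 0.24 for Cox4i2, 0.08 ± 0.11 for Ndufab1, 0.03 ± 0.07 for Cyc1 and 0.06 ± 0.07 for cytochrome c (Cycs). Leaving out fentanyl male replicate 2 gave -0.01 ± 0.09 for Cox4i1, 0.03 ± 0.24 for Cox4i2, -0.02 ± 0.08 for Ndufab1, 0.03 ± 0.06 for Cyc1 and 0.05 ± 0.07 for Cycs. Of 13 mitochondrially encoded subunits 8 were above 0, with a median of 0.02, and without that library 2 were above 0, with a median of -0.15. ND3, a membrane subunit of complex I, had 1064 to 2774 CPM in fentanyl libraries (median 1227) and 692 to 1288 CPM in saline libraries (median 943), with a log2 fold change of 0.57 ± 0.19 (unadjusted p = 0.00857, adjusted p = 0.4998). The highest value of ND3 was that of fentanyl male replicate 2, and without it the log2 fold change was 0.36 ± 0.12 (unadjusted p = 0.00986, adjusted p = 0.474). Of 44 assembly factors 30 were above 0, with a median of 0.03, and Foxred1, a complex I assembly factor, had 0.16 ± 0.07. Of 20 genes of the tricarboxylic acid cycle and pyruvate dehydrogenase 10 were above 0, with a median of -0.01 (0.01 without fentanyl male replicate 2), and Suclg2, a subunit of succinyl-CoA ligase, had -0.30 ± 0.10 (unadjusted p = 0.00622, adjusted p = 0.465).

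The remaining mitochondrial and energy lists lay near 0 as well. Of 18 regulators of mitochondrial gene expression 10 were above 0, with a median of 0.02, and Twnk, the mitochondrial DNA helicase, had 0.26 ± 0.13, and 0.16 ± 0.10 without fentanyl male replicate 2. Glycolysis had 9 of 18 genes above 0, with a median of 0.01 (0.06 and 11 of 18 without that library), and the neuronal enolase Eno2 had 0.17 ± 0.08. Carriers, pores and import genes had 18 of 25 above 0, with a median of 0.02 (0.05 and 17 of 25 without it), and the import channel subunit Timm23 had 0.12 ± 0.06. Antioxidant and uncoupling genes had 5 of 12 above 0, with a median of -0.03 (-0.04 and 3 of 12 without it), and the mitochondrial peroxiredoxin Prdx3 had -0.09 ± 0.06. Small-subunit mitochondrial ribosomal proteins had 24 of 29 above 0, with a median of 0.05, and Mrps12 had 0.21 ± 0.12. Leaving out that library, the list had 15 of 29 above 0, with a median of 0.0004, and Mrps12 had 0.15 ± 0.10. By contrast, the striatal marker list had 18 of 18 genes above 0, with a median of 0.47, and the same count with a median of 0.48 without that library, and no gene past the adjusted threshold.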

How the data were processed

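Poly(A) RNA-seq libraries of 16 rats were analysed from deposited counts per gene. Per the submitters' processing notes, reads were handled with Trimmomatic, STAR, HTSeq and DESeq2 on build rn7; for versions, annotation and strand setting the entry is not given in the sources used here. Antisense or overlapping genes may therefore share reads. Extraction used Trizol and libraries a NEBNext kit, per the labels' protocols. The deposited counts are unnormalized whole numbers in 1 column per library, matched by the library names in the labels. All 33294 rows name genes, and 5345 of them had no count. The chi-square per gene was at least 3.84 in all 120 library pairs, so none was taken for a repeat of another.

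The analysis used edgeR 4.0.16 in R 4.3.3: filterByExpr with the 4 groups (0.603 CPM at the median depth, from a minimum count of 10) left 17856 genes, TMM factors scaled library sizes, and a robust quasi-likelihood model gave log2 fold changes with standard errors (fold change over the square root of F). Sex was a term over both sexes and exposure a term between the sexes. The contrasts in males, in females and of their difference came from a fit of the 4 groups, so females shared the spread of males. Benjamini-Hochberg adjustment covered all tested genes at 0.05. Complex means are means of log2 CPM with a prior count of 2. Scripts were tested on simulated data. The members and lists were chosen with earlier results of these data known. Named members were those past the threshold (none), those with the smallest p in each complex or comparison, a list of core and isoform subunits, and the extremes of level and spread, with 1 gene not reported here; from the other lists the gene with the smallest p. Alternatives were RLE factors, no filter, DESeq2 1.42.0, limma 3.58.1 voom, covariates, a replicate block, other terms, 1 sex alone, subsets of saline males, other level scalings, and each library left out. RefSeq GRCr8 tables gave promoters and gene order; 87 of 88 symbols matched.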

Additional observations from a re-analysis of the deposited data

Results flagged for a closer look

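Levels of the 5 complexes and of the named members in groups of 6 males were checked for a sample far from the others, by the gap of the highest or lowest value to its neighbour as a share of the group's range, against Dixon's critical value for 6 samples. Of 38 sets of values 13 passed. Chance passes about 1 in 20 of unrelated sets, but these sets share the same libraries and are not independent. Fentanyl male replicate 2 lay far above the other fentanyl males in the mean log2 CPM of complex I (gap 0.718 of the range), complex III (0.690), complex IV (0.721) and complex V (0.805). It was also apart as the highest for Sdhd (0.738), Uqcr11 (0.775), Uqcrb (0.910), Cox7a2 (0.854), Atp5me (0.796) and Cox5a (0.698). Over all 80 members, 61 had a sample far from the rest in fentanyl males, 54 of them with replicate 2 as the highest, against 4 in saline males. The share of all tested genes past this check was not computed. Fentanyl male replicate 2 was the highest of the 16 libraries for 64 of 80 members and for 18.6% of all tested genes. Whether the counts of this check are particular to the members was not tested. Fentanyl male replicate 3 was apart as the lowest for Ndufs5 (0.679), saline male replicate 2 as the lowest for Ndufa10l1 (0.670) and saline male replicate 3 as the lowest for Atp5mc1 (0.628).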

How the results depend on the processing

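Calls of members changed with the test or the libraries in 1 gene, Ndufa10l1. Over both sexes the count of members called lower was 0 in edgeR and 1 with DESeq2, limma voom, a replicate block, or without saline males of library numbers 1 and 2; in males it was 0 in edgeR and 1 with DESeq2, limma voom, without those saline males or without fentanyl male replicate 5, and 0 without the saline males of library numbers 9 to 12 (log2 fold change -0.90 in males and -1.38 over both sexes); in females it was 1 with females alone. Leaving out single libraries gave 0 to 1 over both sexes and 0 to 1 in males. No alternative run called a member higher. The members' median log2 fold change was -0.09 with limma voom and -0.01 with the striatal and myelin covariates over both sexes, and -0.06 with each in males; in females it was 0.14 with the covariates and -0.25 to 0.17 with single libraries left out. The difference between the sexes was 0.21 with the covariates. RLE factors and no filter kept the sign of all 5 medians.

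The sign of small fold changes turned in some named members; the cause was not tested. With limma voom over both sexes Uqcrb was -0.0476, Cox7a2 -0.0296 and Atp5me -0.0873. With the covariates Uqcrb was -0.00328 and Atp5me -0.00558 over both sexes, Uqcrfs1 -0.000998 in males, Sdhb 0.0523 in females, and the difference between the sexes for Uqcrfs1 0.0271. Without saline males of library numbers 9 to 12 Sdhb was 0.0386 over both sexes. Leaving out single libraries gave -0.0232 to 0.174 for Uqcrb and -0.0611 to 0.219 for Atp5me over both sexes, each lowest without fentanyl male replicate 2, and -0.0323 to 0.413 for Atp5mc1 in females.

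Replicate numbers gave no clear pairing of the samples, though the check could not exclude a pairing by litter or day. Same-numbered males correlated over 0.1 in their deviations from group means in 2 of 6 pairs (0.21 for number 1 and 0.16 for number 3). Of 6 fentanyl males 1 correlated best with its own number. The females had -0.17, a value that both pairs share by construction with 2 animals a group. With the replicate block the members' median was 0.03 over both sexes, 0.07 in males and -0.06 in females, and Ndufa10l1 had an adjusted p of 0.0426 over both sexes in edgeR. Over all genes, calls for both sexes numbered 14 in edgeR, 7 with the block, 87 with DESeq2, 1031 with limma voom, 1226 without saline males 1 and 2 by library number and 4 without 9 to 12; the counts of all genes moved by over 1.5 times in males, in females and for the difference as well. With 2 animals a group, females allow little precision, and Ndufa10l1, Cox8b, Cox6b2 and Cox7a2l2 rest on low counts.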
